A study of Mus musculus with 9 samples.

Results

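A set of 10 genes of the BCL2 family was followed in brain myeloid cells of mice in which CSF1R, the receptor that microglia need to survive, had been blocked. The genes were Bcl2, Bcl2l1, Mcl1, Bcl2a1a, Bcl2a1b and Bcl2a1d, which are anti-apoptotic, Bax and Bak1, which carry out cell death, and Bcl2l11 and Bbc3, which trigger it. They were chosen by symbol, without use of measured values, and all 10 of them were found among the 31053 genes counted. Ctrl mice were naive, D0 mice had eaten a diet with the CSF1R inhibitor PLX5622 (PLX) at 1200 mg/kg for 14 days, and D2 mice had then been returned to a control diet for 2 days. All were female mice of 5 months without a transgene, of the strain C57BL/6 by the labels and C57BL/6J by the methods of the study. Whole brains without the cerebellum were digested with enzymes at 37 °C for 45 minutes, myelin was depleted, and live CD11b+ cells were sorted and profiled with 10x 3′ single-cell libraries, 3 for each condition. Each Ctrl library held 1 brain, and each D0 or D2 library pooled 2 brains, so that the spread between D0 or D2 libraries is a spread between pools. The inhibitor reached the whole animal, and cells that PLX had removed were not measured: D0 values describe the microglia that were left.

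BCL2 family proteins decide at the outer membrane of the mitochondrion whether a cell dies by apoptosis. BAX and BAK1 open pores in that membrane, anti-apoptotic members such as BCL2, BCL-XL (encoded by Bcl2l1), MCL1 and the BCL2A1 proteins hold them back, and BH3-only members such as BIM (Bcl2l11) and PUMA (Bbc3) bind the anti-apoptotic proteins and so release the effectors. Growth factor receptors including CSF1R signal against BH3-only members, and p53 is a well-known activator of Bbc3 and Bax. Much of the regulation of these proteins happens after transcription, through protein turnover and binding, which RNA counts do not show.

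The 8 libraries compared (3 Ctrl, 3 D0 and 2 D2) held 20257894 to 61230741 unique molecular identifiers (UMIs) over all barcodes, and 12076107 to 35974994 UMIs in the 1533 to 3724 cells per library that were called microglia-like from marker genes. All 10 microglia markers were found in the microglia-like cells of every library, at a sum of 27620 to 32480 CPM (UMIs scaled to a total of 1000000) in Ctrl libraries, 19640 to 21770 in D0 libraries and 16560 to 17100 in D2 libraries. Summed markers of dendritic cells in the same cells were 22.9 to 28.2 CPM in Ctrl libraries, 41.4 to 75.8 in D0 libraries and 45.5 to 62.1 in D2 libraries, those of monocytes 24.2 to 29.7, 34.9 to 52.6 and 42.8 to 96.5, and those of neutrophils 210 to 265, 194 to 384 and 278 to 431, and their part in the results was not tested. Pairs of libraries shared at most 0.221% of the barcodes of the smaller one. Library D2-3 stood apart, with 86.8% dividing cells among 638 microglia-like cells. It was left out of the main fits, as in the study. With it in the fit the spread was larger, and calls it changes are given beside the results. File headers name Cell Ranger 3.1.0 for Ctrl-2 and Ctrl-3 and 3.0.2 for the other 6 libraries compared, so that Ctrl-1 was the sole control processed with the version of the treated libraries.

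The BCL2A1 genes are near-identical copies on chromosome 9. On GRCm38 Bcl2a1a lies at chr9:88956900-88962419 on the plus strand, Bcl2a1b at chr9:89199209-89207827 on the plus strand and Bcl2a1d at chr9:88723285-88731914 on the minus strand. Their transcripts were 98.2% (a and b), 98.8% (a and d) and 99.1% (b and d) identical over the aligned 817 to 819 bases. Among windows of 90 bases in the last 500 bases of each transcript, where 3′ libraries read, 39.7% of those of Bcl2a1a, 39.4% of Bcl2a1b and 65.2% of Bcl2a1d also occurred in another copy. Counts of 1 copy are therefore uncertain, and the sum of the copies is given beside them. Reads that fit several copies may be missing from that sum too, which was not tested. The sequence upstream of the RefSeq start is shown because it is near-identical in these copies, and its part in their levels was not tested. It is trimmed to bases outside any annotated exon, 5′ to 3′ on the strand of the gene, with matches to the AP-1 motif TGANTCA and the PU.1 motif GAGGAAGT in capitals (AP-1 first, GRCm38.p6):
Bcl2a1a, chr9:88956670-88956899: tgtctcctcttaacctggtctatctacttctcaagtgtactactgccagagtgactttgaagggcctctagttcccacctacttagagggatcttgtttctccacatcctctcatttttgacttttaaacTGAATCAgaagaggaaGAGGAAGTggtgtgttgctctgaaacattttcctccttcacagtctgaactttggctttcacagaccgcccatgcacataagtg
Bcl2a1b, chr9:89199023-89199208: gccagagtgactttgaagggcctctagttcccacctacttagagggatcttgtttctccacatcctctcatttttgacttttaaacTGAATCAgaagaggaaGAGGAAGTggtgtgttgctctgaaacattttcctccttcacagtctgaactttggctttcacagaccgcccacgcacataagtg
Bcl2a1d, chr9:88731915-88731997, minus strand: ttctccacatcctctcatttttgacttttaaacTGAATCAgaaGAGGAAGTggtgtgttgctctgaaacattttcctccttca

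Each of these copies held 1 AP-1 and 1 PU.1 match, at -120 and -104 from the start in Bcl2a1a, -164 and -148 in Bcl2a1b and -114 and -104 in Bcl2a1d. A further copy, Bcl2a1c, held a PU.1 match at -214 and no AP-1 match. Over the 250 bases before 32851 RefSeq starts, searched on both strands, 6.75% held the AP-1 motif and 2.44% the PU.1 motif. The upstream sequences of Bcl2a1a, Bcl2a1b and Bcl2a1d were 97.5% to 99.5% identical where they aligned. That of Bcl2a1c was 94.29% to 95.65% identical to them. The matches are thus not independent of one another. A match shows that the letters are present and not that a factor binds.

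In microglia-like cells 6 of the 10 genes rose in D0 against Ctrl, against a background of 19.8% of the 12402 genes tested that were called in either direction and 12.3% that were called higher (edgeR's quasi-likelihood test on UMIs summed per library, adjusted p under 0.05). These were the 3 BCL2A1 copies, Mcl1, Bax and Bbc3, and thus both anti- and pro-apoptotic genes. The copies are near-identical and their calls are not independent, yet they enter the counts and medians here and below as 3 genes. In D2 against Ctrl 5 rose (background 18.5%, higher 10.8%), with Mcl1 not past the limit. None was called lower. The median log2 fold change of the 10 was 0.64 in D0 and 0.63 in D2, against -0.05 and -0.03 over all genes tested. Both comparisons use the same 3 Ctrl libraries and are not independent of each other. Values for single libraries below are normalised CPM, that is, CPM after TMM scaling of the libraries.

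**Figure D1:**
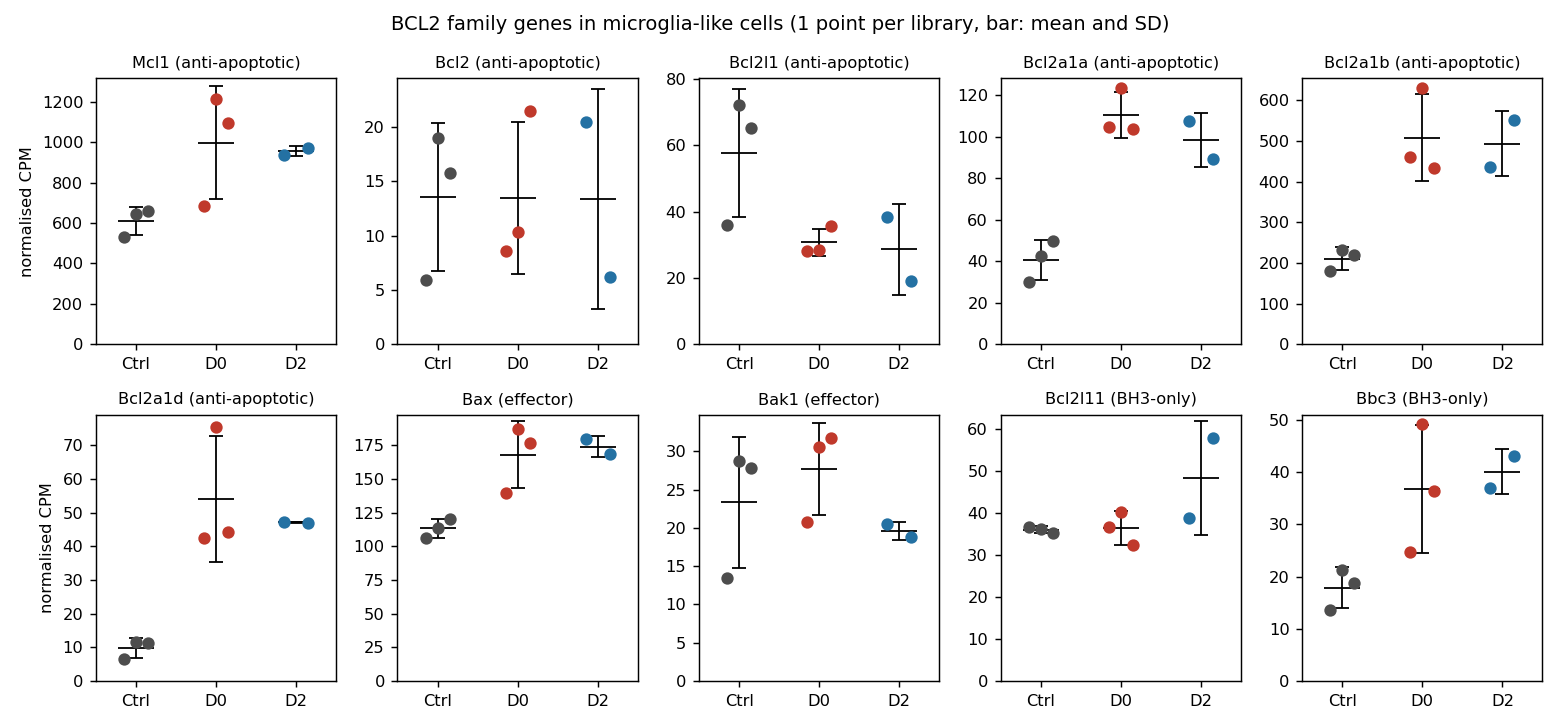
Normalised CPM (vertical axes, from 0, a separate scale for each gene) of the 10 genes in microglia-like cells, 1 point per library for Ctrl, D0 and D2, with the mean and SD as bars. The D0 and D2 points of the 3 BCL2A1 genes, Mcl1, Bax and Bbc3 lie above every Ctrl point, while in Bcl2 and Bak1 both D0 and D2 overlap with Ctrl.

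The BCL2A1 copies, which encode an anti-apoptotic protein known as a target of NF-κB in myeloid cells, showed the largest differences among the 10 genes. Bcl2a1d was measured at 6.48, 11.6 and 11.4 normalised CPM in Ctrl-1, Ctrl-2 and Ctrl-3, at 42.6, 75.6 and 44.2 in the D0 libraries and at 47.3 and 47.1 in the D2 libraries. The treated libraries did not overlap with Ctrl, and the difference was 5.55-fold in D0 (log2 2.47 ± 0.28 SE, adjusted p = 0.000278) and 4.83-fold in D2 (log2 2.27 ± 0.30, adjusted p = 0.000759), or 12.1-fold in D2 (log2 3.60, adjusted p = 0.0117) with D2-3 in the fit. Bcl2a1a stood at 30.2, 42.3 and 49.6 normalised CPM in Ctrl, 105, 124 and 104 in D0 and 108 and 89.3 in D2. All its treated libraries were above all Ctrl libraries, 2.72-fold in D0 (adjusted p = 0.000527) and 2.43-fold in D2 (adjusted p = 0.00188), or 4.24-fold in D2 with D2-3. Bcl2a1b was at 179, 232 and 220 normalised CPM in Ctrl, 460, 631 and 433 in D0 and 436 and 550 in D2. Again there was no overlap, with a 2.41-fold rise in D0 (adjusted p = 0.000901) and 2.34-fold in D2 (adjusted p = 0.00188). Summed over all 4 copies, an alternative chosen after the data had been seen, they stood at 261 ± 39.1 (SD, n = 3) normalised CPM in Ctrl, 675 ± 137 (n = 3) in D0 and 641 ± 67.0 (n = 2) in D2, a log2 difference of 1.37 ± 0.17 and 1.29 ± 0.18. The copies were also called when Ctrl-1 was the sole control, at log2 1.52 to 3.08 in D0, a fit that takes its spread from the treated libraries and assumes that Ctrl-1 varies like them. With D2-3 in the fit Bcl2a1b alone of the 10 genes was called in D0 (log2 1.29, adjusted p = 0.0109).

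Mcl1, an anti-apoptotic protein of short half-life on which many myeloid cells rely, lies at chr3:95658788-95663176. It was measured at 531, 646 and 658 normalised CPM in Ctrl, 682, 1217 and 1097 in D0 and 938 and 974 in D2. Every treated library compared was above every Ctrl library, though D0-1 by little, while D2-3, left out here, lay below every Ctrl library in plain CPM. The fitted difference was 1.63-fold in D0 (log2 0.71 ± 0.20, adjusted p = 0.0321) and 1.56-fold in D2 (log2 0.64 ± 0.21, adjusted p = 0.0661). The D0 call was lost when any of Ctrl-1 (adjusted p = 0.0698), Ctrl-2 (0.0761), Ctrl-3 (0.0727), D0-2 (0.128) or D0-3 (0.0893) was left out, with log2 differences of 0.54 to 0.76, and with a term for the Cell Ranger version (log2 0.91, adjusted p = 0.0725).

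Bcl2l1, which encodes BCL-XL (chr2:152780668-152831728), was the one anti-apoptotic gene with lower values after PLX. It stood at 35.9, 72.3 and 65.2 normalised CPM in Ctrl, 28.3, 28.6 and 35.5 in D0 and 38.3 and 19.0 in D2. The lowest Ctrl library, Ctrl-1, was close to the highest treated ones, and D2 overlapped with Ctrl. The log2 difference was -0.91 ± 0.29 in D0 (adjusted p = 0.0572) and -1.0 ± 0.34 in D2 (adjusted p = 0.0693), past the limit in neither. Without Ctrl-1 it was called, at log2 -1.14 (adjusted p = 0.0137) in D0 and -1.22 (adjusted p = 0.0142) in D2, whereas with Ctrl-1 as the sole control it was -0.21 and -0.29. The Cell Ranger version of the controls and this difference cannot be told apart.

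Bcl2 itself (chr1:106538178-106714274) was sparse, at 5.90, 19.0 and 15.8 normalised CPM in Ctrl, 8.55, 10.4 and 21.5 in D0 and 20.5 and 6.18 in D2. All groups overlapped, and the log2 differences of -0.01 ± 0.52 in D0 and 0.01 in D2 leave either direction possible at this spread.

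Of the effectors, Bax (chr7:45461697-45466898) was higher in both treated groups. Its levels were 106, 114 and 120 normalised CPM in Ctrl, 140, 187 and 177 in D0 and 180 and 168 in D2. The groups did not overlap, and Bax rose 1.48-fold in D0 (log2 0.57 ± 0.13, adjusted p = 0.0141) and 1.54-fold in D2 (log2 0.62 ± 0.14, adjusted p = 0.0150). The D0 call was lost without Ctrl-2 (adjusted p = 0.0519) or D0-2 (0.0684) and in non-dividing cells alone (log2 0.46, adjusted p = 0.0516), and the D2 call without D2-1 (0.0716) or D2-2 (0.0633). Bak1 (chr17:27019810-27029009) stood at 13.5, 28.7 and 27.9 normalised CPM in Ctrl, 20.7, 30.6 and 31.7 in D0 and 20.5 and 18.8 in D2. Ctrl-1 was again the low control, and neither difference was called (log2 0.25 in D0, adjusted p = 0.556, and -0.25 in D2, adjusted p = 0.631). With a term for the Cell Ranger version Bak1 was called in D0 (log2 1.04, adjusted p = 0.0325), but that difference is from Ctrl-1 alone, the low control. Bak1 was not called in the fit of Cell Ranger 3.0.2 libraries alone.

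The BH3-only genes were Bbc3 and Bcl2l11. Both are known targets of FOXO factors, and the 250 bases before 1 start of each held 1 match to the FOXO motif GTAAACA. Further starts of both genes were searched and held no match. Of the 32851 upstream sequences 3.17% held the motif on either strand, a share per start and not per gene. The sequences with a match are shown, with the match in capitals, because the motif stands before a start of both genes (GRCm38.p6, plus strand):
Bbc3, chr7:16310011-16310260: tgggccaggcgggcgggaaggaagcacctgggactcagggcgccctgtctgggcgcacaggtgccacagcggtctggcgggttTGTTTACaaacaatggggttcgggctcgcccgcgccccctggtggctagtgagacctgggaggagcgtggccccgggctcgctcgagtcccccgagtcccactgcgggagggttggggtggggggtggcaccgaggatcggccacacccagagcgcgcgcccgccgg
Bcl2l11, chr2:128125788-128126037: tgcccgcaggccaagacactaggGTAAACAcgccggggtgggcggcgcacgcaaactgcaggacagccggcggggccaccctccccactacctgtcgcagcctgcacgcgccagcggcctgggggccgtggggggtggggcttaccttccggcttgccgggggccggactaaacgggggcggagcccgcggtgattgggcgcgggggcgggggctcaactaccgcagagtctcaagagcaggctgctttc

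Bbc3, which encodes PUMA, was at 13.6, 21.3 and 18.7 normalised CPM in Ctrl, 24.6, 49.2 and 36.4 in D0 and 37 and 43.2 in D2. All treated libraries compared exceeded all Ctrl libraries, 2.07-fold in D0 (log2 1.05 ± 0.25, adjusted p = 0.0175) and 2.25-fold in D2 (log2 1.17 ± 0.27, adjusted p = 0.0160). D2-3, left out here, did not exceed every Ctrl library in plain CPM. The D0 call was lost without Ctrl-3 (adjusted p = 0.0527) or D0-2 (0.0695) and the D2 call without D2-2 (0.105) or with D2-3 in the fit (0.0730). Bcl2l11, which encodes BIM, stood at 36.7, 36.1 and 35.2 normalised CPM in Ctrl, 36.6, 40.3 and 32.3 in D0 and 38.8 and 57.8 in D2. Ctrl and D0 overlapped, with a log2 difference of 0.02 ± 0.16 (adjusted p = 0.952), while both D2 libraries were above every Ctrl library, D2-1 by little, and the D2 difference of 0.42 ± 0.17 was not called (adjusted p = 0.124). Without D2-1, so that D2-2 alone stood for D2, it was called at log2 0.72 (adjusted p = 0.0244), with the spread taken from Ctrl and D0 alone. The difference between Bbc3 and Bcl2l11 was not tested.

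Other motifs were matched in single genes. Bak1 held a PU.1 match at -22, Bax a p53 half-site match at -201, and Bcl2l1 and a further start of Bbc3 κB matches at -242 and -137, motifs present in 2.44%, 7.13% and 7.25% of all upstream sequences. No BCL2A1 copy held a κB match in the bases searched.

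Between D2 and D0 none of the 10 genes was called (background 0%, with 849 genes at an unadjusted p under 0.05 and 26 called by DESeq2). Their log2 differences ran from -0.50 in Bak1 to 0.40 in Bcl2l11, with a smallest adjusted p of 0.700, and D2 rested on 2 libraries.

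The share of cells with a UMI moved in the same way as the summed levels. Each cell was thinned to 2000 UMIs, which left out 294 Ctrl, 271 D0 and 351 D2 cells. Bcl2a1b was then found in 30.4% to 33.8% of microglia-like cells in Ctrl libraries, 46.3% to 54.4% in D0 libraries and 50.7% to 56.4% in D2 libraries. In endothelial-like cells it was found in 0 to 2.94%, 2.61% to 9.30% and 0 to 2.34%. Unthinned, the shares in microglia-like cells were 66.4% to 74.9%, 77.3% to 88.3% and 77.7% to 84.2%. Bcl2a1d was found in 1.30% to 2.09% of thinned cells in Ctrl libraries, 5.14% to 9.08% in D0 libraries and 6.08% to 6.61% in D2 libraries. Endothelial-like cells held it at 0 to 3.23%, on few cells. The 3.23% is 1 of 31 cells in Ctrl-2, and 1 of 86 held it in D0-2, with none in the other libraries compared. That range is therefore no firm background for the Ctrl share. Thinned shares of Bbc3 were 3.07% to 3.85% in Ctrl libraries, 4.59% to 8.23% in D0 libraries and 7.37% to 8.97% in D2 libraries. Those of Bcl2l1 were 8.39% to 13.8% in Ctrl libraries, against 5.32% to 6.61% (D0) and 3.75% to 6.82% (D2). The median depth was 5376 to 10460 UMIs in microglia-like and 2858 to 6619 in endothelial-like cells.

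**Figure D2:**
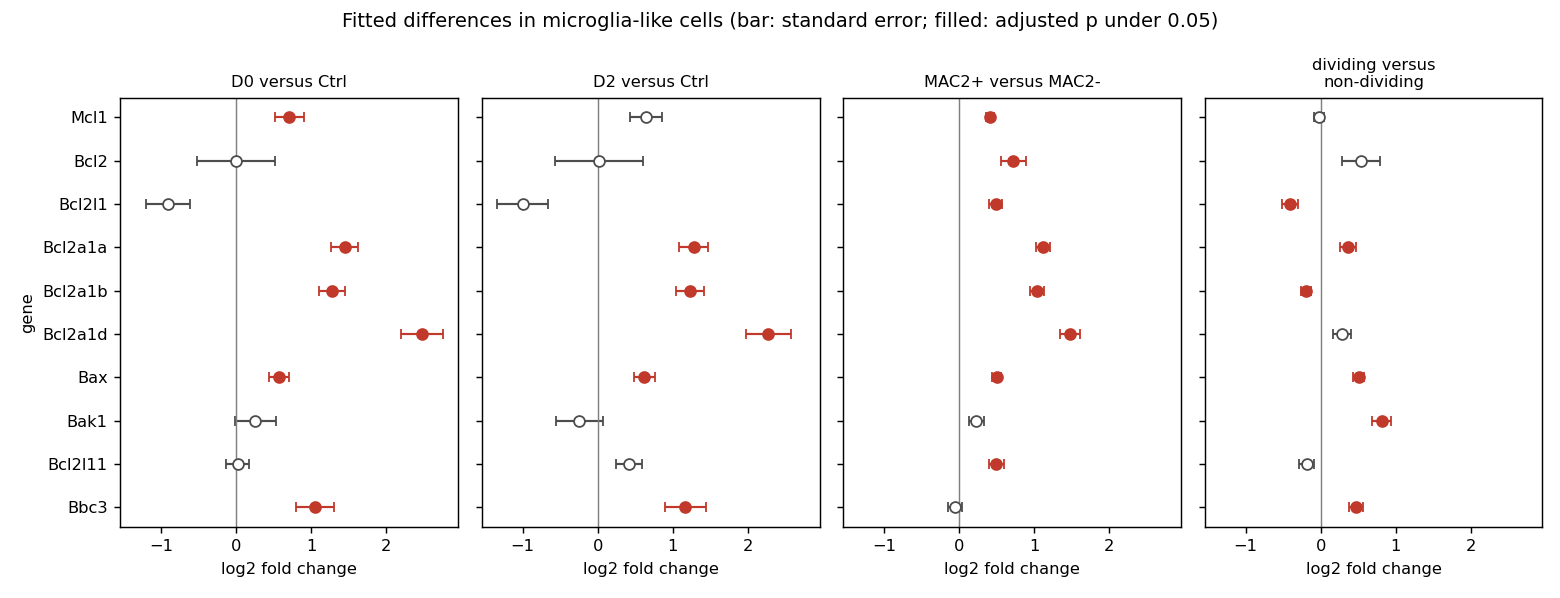
Fitted log2 fold changes (horizontal axes, shared scale) of the 10 genes (rows) in 4 comparisons within microglia-like cells, with standard errors as bars and filled points for an adjusted p under 0.05. The BCL2A1 copies are the farthest to the right in D0, D2 and MAC2+ cells and lie between -0.20 and 0.36 for dividing against non-dividing cells.

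MAC2+ microglia, which the study described as resistant to PLX, were set against MAC2- microglia of the same libraries. MAC2 is galectin-3, and cells were called MAC2+ where Lgals3 was above the mean plus 1 SD, so that Lgals3 is no result here. The limit was a log value of 0.395, which 1 UMI of Lgals3 passed at every depth kept, up to 20000 UMIs. MAC2+ thus means here that Lgals3 was detected, a call that depends on the depth of the cell. The mean and SD were taken over microglia-like cells, with dendritic cell-, monocyte- and border-associated macrophage-like cells set apart. In the study most MAC2+ cells came from a cluster marked by MHC genes and Cd74. Its MAC2+ cells and those here are therefore not the same set. MAC2+ cells made up 0.924% to 1.27% of microglia-like cells in Ctrl (23 to 41 cells per library), 4.66% to 8.57% in D0 libraries and 6.99% to 14.1% in D2 libraries, and they were deeper, with a median of 8378 to 14530 UMIs against 5266 to 10260. In these cells 8 of the 10 genes were higher, against a background of 24.0% of 10768 genes called and 12.8% called higher. Their median log2 difference was 0.50, against -0.03 over all genes.

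Bcl2a1d ranged from 50.2 to 138 normalised CPM (median 87.7) in MAC2+ cells over the 8 libraries and from 5.88 to 67.3 (median 36.5) in MAC2- cells. It was higher in MAC2+ cells in 8 of 8 libraries, 2.78-fold (log2 1.48 ± 0.14, adjusted p = 9.02e-08). Bcl2a1b ranged from 391 to 1007 normalised CPM (median 702) in MAC2+ cells and from 175 to 581 (median 403) in MAC2- cells. It and Bcl2a1a were likewise higher in 8 of 8 libraries, 2.05-fold and 2.17-fold. Mcl1 ranged from 712 to 1399 normalised CPM (median 1032) against 523 to 1184 (median 776). Mcl1 (1.33-fold, adjusted p = 3.81e-06) and Bax (1.41-fold, adjusted p = 2.70e-06) were higher in 8 of 8 libraries as well, although the ranges of the classes over all libraries overlapped. Bcl2 (1.64-fold, adjusted p = 0.00293) and Bcl2l1 (1.40-fold, adjusted p = 0.000426) were higher in 7 of 8 and Bcl2l11 (1.41-fold, adjusted p = 0.000555) in 6 of 8, and Bak1 (log2 0.23, adjusted p = 0.111) and Bbc3 (log2 -0.06, adjusted p = 0.739) were not called. MAC2+ cells thus held higher levels of all 6 anti-apoptotic genes, with Bax and Bcl2l11. Of these the 3 BCL2A1 copies are not independent, and the sum of the copies was higher by log2 1.12 ± 0.09 (adjusted p = 7.91e-09). When cells were thinned to 2000 UMIs, the calls of Bcl2 (log2 0.62, adjusted p = 0.617) and Bcl2l1 (log2 0.47, adjusted p = 0.458) were lost. Doublets were not removed, and markers of other cell types were not compared between MAC2+ and MAC2- cells. The part of doublets or misplaced cells in these differences was not tested.

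Dividing microglia, with UMIs of at least 2 of 8 mitotic genes, made up 0.235% to 0.372% of microglia-like cells in Ctrl libraries, 7.96% to 21.3% in D0 libraries and 15.5% to 21.8% in D2 libraries. In the D0 and D2 libraries dividing cells had a median of 7072 to 13740 UMIs, against 5290 to 9788 in non-dividing cells. They were called by detected UMIs, so that the class depends on depth. Within the 5 D0 and D2 libraries they differed from non-dividing cells in 4 genes that were higher and 2 that were lower, against a background of 44.9% of 11083 genes called, 22.3% higher and 22.6% lower, so that the share of the 10 is near that of all genes. Bak1 ranged from 22.4 to 43.5 normalised CPM (median 40.1) in dividing and from 14.1 to 26.1 (median 18.5) in non-dividing cells. It was higher in 5 of 5 libraries, 1.75-fold (log2 0.81 ± 0.13, adjusted p = 0.000302). Bax, from 178 to 238 normalised CPM (median 223) against 128 to 163 (median 150), was also higher in 5 of 5 and its classes did not overlap (1.42-fold, adjusted p = 0.000212). Bbc3 was higher in 5 of 5 libraries (1.38-fold, adjusted p = 0.00192) and Bcl2l1 lower in 5 of 5 (log2 -0.40, adjusted p = 0.00825). Among the copies Bcl2a1a was called higher (log2 0.36, adjusted p = 0.0141) and Bcl2a1b lower (log2 -0.20, adjusted p = 0.0368), but the sum of the copies differed by log2 -0.06 (adjusted p = 0.539). The call of Bcl2a1a was lost without D0-1 (adjusted p = 0.0608) or D2-2 (0.0803), and that of Bcl2a1b without D0-1 (0.0651), D0-2 (0.161), D0-3 (0.154) or D2-2 (0.0512). Mcl1 differed by log2 -0.02 (adjusted p = 0.804).

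Of the other 16 listed genes of the BCL2 family 11 were tested in microglia-like cells, of which 3 rose and 1 fell in D0, beside 19.8% of all genes called and 12.3% called higher. Pmaip1, which encodes the BH3-only protein NOXA, a p53 target that binds MCL1, rose 2.74-fold in D0 (adjusted p = 0.0113) and 3.1-fold in D2 (adjusted p = 0.00943). It stood at 6.27, 11.3 and 13.1 normalised CPM in Ctrl, 17.3, 37.4 and 28.5 in D0 and 33.7 and 29.2 in D2. Bad, another BH3-only gene, rose 1.58-fold in D0 and 1.45-fold in D2, and Bcl2a1c, the remaining copy of BCL2A1, rose 3.69-fold and 3.22-fold from under 1 normalised CPM in each Ctrl library. Bid, the BH3-only protein that caspase-8 cleaves, fell to 0.483 of Ctrl in D0 (adjusted p = 0.0249) and to 0.296 in D2 (adjusted p = 0.00498). It stood at 28.1, 49.4 and 46.0 normalised CPM in Ctrl, 17.5, 19.0 and 23.1 in D0 and 16.0 and 7.96 in D2, with no overlap.

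Of the 28 listed genes of the death pathways 26 were tested, of which 3 rose and 1 fell in D0, and 3 rose and 3 fell in D2. With 19.8% and 18.5% of all genes called, these counts are near the background, and the genes are named singly. The largest difference was that of Cdkn1a, the p53 target p21 that halts the cell cycle, at 19.2, 30.2 and 29.1 normalised CPM in Ctrl, 67.2, 196 and 174 in D0 and 132 and 137 in D2. No treated library overlapped with Ctrl, and Cdkn1a rose 5.58-fold in D0 (adjusted p = 0.00122) and 5.14-fold in D2 (adjusted p = 0.00230). The death receptor gene Fas rose 2.16-fold and 2.94-fold at levels under 4 normalised CPM, and Vdac1, a channel of the outer mitochondrial membrane, rose 1.37-fold in D0. Casp8, the caspase at death receptors, was at 0.797 of Ctrl in D0 and 0.720 in D2. In D2 Apaf1, the core of the apoptosome, rose 1.83-fold, and Cflar, an inhibitor of caspase-8, and Diablo, which lifts the block on caspases, fell to 0.731 and 0.754. The median log2 difference was 0.16 over the other family genes and 0.00 over the pathway genes in D0, and 0.02 and -0.02 in D2.

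In MAC2+ cells 2 of the 11 other family genes were higher and 2 lower, and 7 of the 26 pathway genes were higher and 4 lower, at a background of 24.0% called and 12.8% called higher. The family genes were Bnip3 (log2 0.54) and Pmaip1 (0.36), and Bmf (-0.61) and Bid (-0.42). Among pathway genes called, those of larger difference included Cdkn1a (1.5), Cycs (0.58), Birc3 (0.44), Ccng1 (0.35), Mdm2 (0.25) and Vdac1 (0.20), which were higher, and Casp8 (-0.30), Xiap (-0.23) and Tnfrsf1a (-0.21), which were lower. Dividing cells had 5 other family genes higher and 3 lower, and 6 of 26 pathway genes higher and 4 lower, with 44.9% of all genes called. They were led by Cdkn1a (log2 1.66), Bcl2l12 (0.90) and Bik (0.84), with Bmf (-1.11) and Bnip3 (-0.89) the lowest. Of the other family genes called in dividing cells Bnip3l (-0.60), Pmaip1 (0.56), Bcl2l13 (0.51) and Bad (0.25) made up the rest, and the pathway genes included Cycs (0.64), Ccng1 (0.62), Vdac1 (0.34) and Apaf1 (0.33), with Casp9 (-0.48), Cflar (-0.43), Casp6 (-0.32) and Ripk1 (-0.27) lower.

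Microglia-like cells fell into clusters that differed in these genes, which were left out of the clustering. Genes that go with them were not, so that levels between clusters, in plain CPM without TMM scaling, are a description. Cluster 5, led by the immune and early response genes Dusp2, Gadd45b, Cxcl2, Tnf, Il1a and Il1b, had the highest levels of the BCL2A1 copies, with Bcl2a1b at 951 ± 114 CPM (SD, n = 7 libraries with at least 20 of its cells), Bcl2a1a at 212 ± 47.3 and Bcl2a1d at 134 ± 23.3. Its level was high in Ctrl cells too, at 963 and 1056 CPM of Bcl2a1b in Ctrl-2 and Ctrl-3 against 1025, 823 and 765 in D0 and 1046 and 981 in D2. Treated libraries of Bcl2a1b lay on both sides of Ctrl there. Bcl2a1d in cluster 5 was at 120 and 110 CPM in Ctrl-2 and Ctrl-3, 153, 127 and 108 in D0 and 166 and 152 in D2, and Bcl2a1a at 158 and 209 in Ctrl, 261, 172 and 173 in D0 and 279 and 235 in D2. For both of these copies D0 overlapped with Ctrl and the D2 libraries lay above it. These values rest on 37 and 75 cells in Ctrl, 197, 1230 and 303 in D0 and 132 and 111 in D2, and Ctrl-1 had under 20. Cell Ranger version and treatment cannot be told apart in this cluster, since both its controls were processed with 3.1.0 and the treated libraries with 3.0.2. The sizes of the clusters are not compared, since genes that differ between conditions shaped them.

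In other clusters Bcl2a1b was higher in some or all treated libraries. In cluster 3 it was at 180, 167 and 179 CPM in Ctrl, 298, 271 and 224 in D0 and 266 and 381 in D2, and in cluster 2 at 182, 190 and 178 CPM in Ctrl, 383, 298 and 256 in D0 and 198 in D2-1. Neither set of treated libraries overlapped with Ctrl, though D2-1 in cluster 2 was close to it. In cluster 4 Bcl2a1b was at 398 and 249.8 CPM in Ctrl-1 and Ctrl-3 and 381 to 646 in the treated libraries, and in cluster 10 at 285 and 346 in the same controls and 336 to 526 in the treated libraries. The lowest treated library, D0-3, overlapped with Ctrl in both. Bcl2a1d in cluster 2 stood at 3.81, 6.10 and 5.68 CPM in Ctrl and 7.89, 8.17 and 8.03 in D0, on 2 to 65 UMIs per library. In D2-1 it was at 22.7 CPM, on 23 cells.

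Mcl1 was high in cluster 5 (1432 ± 177 CPM, n = 7), in cluster 4, led by Egr1, Ier2 and Fos (1291 ± 273, n = 7), and in cluster 7, led by Klf2, Fosb, Jun and Egr1 (1170 ± 284, n = 6), against 447 ± 92.5 (n = 8) in cluster 3. In cluster 3 Mcl1 was at 503, 313 and 338 CPM in Ctrl, 388, 434 and 521 in D0 and 539 and 543 in D2. D0 overlapped with Ctrl there. In cluster 4 it was at 1274 and 911 CPM in Ctrl-1 and Ctrl-3, 985, 1352 and 1676 in D0 and 1314 and 1524 in D2, again with overlap. In cluster 7 it was at 969.8, 1039 and 1021 CPM in Ctrl, 1651 and 1386 in D0-2 and D0-3 and 954 in D2-1, so that D0 lay above Ctrl and D2-1 below it. In cluster 5 it was at 1696 and 1478 CPM in Ctrl-2 and Ctrl-3, 1112, 1351 and 1467 in D0 and 1411 and 1506 in D2, with no treated library above both controls. Cluster 8, led by Top2a and Mki67, had Bax at 224 ± 27.9 CPM (n = 5) against 119 ± 23.9 (n = 8) in cluster 3.

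**Figure D3:**
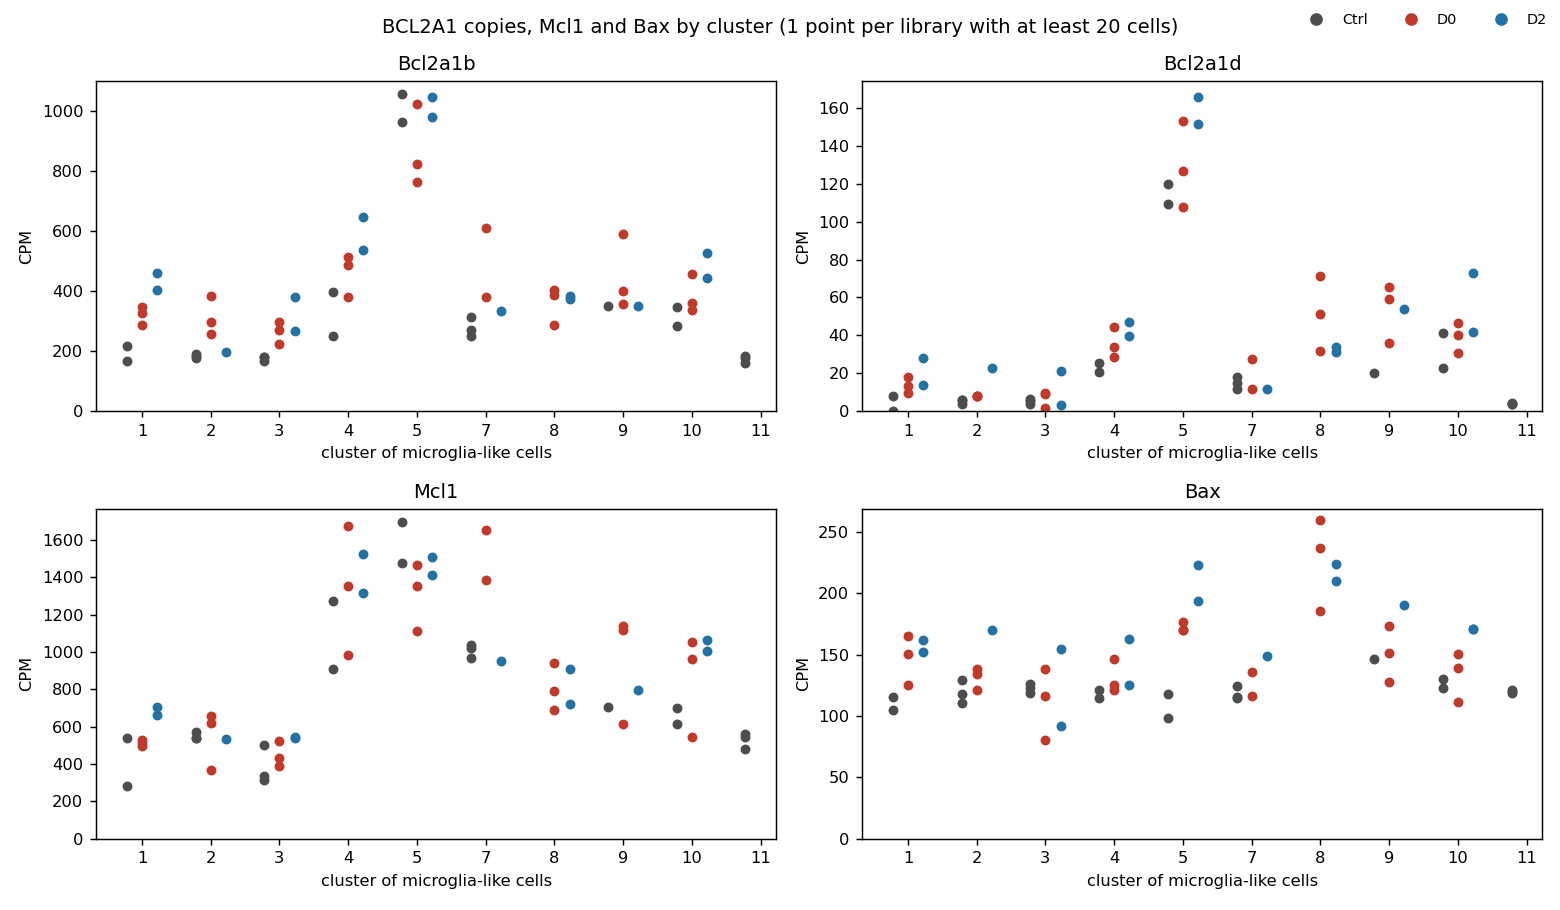
Plain CPM of Bcl2a1b, Bcl2a1d, Mcl1 and Bax (vertical axes, from 0) in each cluster of microglia-like cells, 1 point per library with at least 20 cells of the cluster, coloured by condition. Cluster 5 has the highest BCL2A1 levels in Ctrl, D0 and D2 alike, with Bcl2a1b at 765 to 1056 CPM.

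Across the other sorted cells each family gene had its own order, given here in plain CPM as the mean and SD over libraries with at least 20 cells of the type, which pool the conditions. Bcl2a1b was highest in dendritic cell-like (416 ± 140, n = 7) and microglia-like cells (384 ± 142, n = 8), followed by border-associated macrophage-like cells (291 ± 71.2, n = 4), and these neighbours did not differ beyond their SD. It was lower in monocyte-like (109 ± 68.9, n = 7), neutrophil-like (107 ± 44.2, n = 7) and lymphoid-like cells (91.5 ± 13.6, n = 2) and least in endothelial-like (33.3 ± 40.1, n = 8) and mural-like cells (18.1 ± 16.5, n = 6). In Ctrl-2 and Ctrl-3 alone monocyte-like cells, at 218 and 179 CPM, were closer to the 241 and 233 of microglia-like cells. Bcl2a1d stood out in dendritic cell-like cells at 241 ± 53.7 CPM, above the microglia-like cells of the same library in 7 of 7 libraries, followed by monocyte-like (63.5 ± 34.1), border-associated macrophage-like (56.0 ± 48.9) and microglia-like cells (34.5 ± 21.6). Among these the order depended on the condition: monocyte-like cells were at 134 and 82.3 CPM in Ctrl-2 and Ctrl-3 against 12.1 and 12 in microglia-like cells of the same libraries, but at 53, 39.2 and 49.7 against 41.2, 67.7 and 41.2 in D0.

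Mcl1 ran from 1513 ± 526 CPM in neutrophil-like cells, which live briefly and are known to depend on it, through dendritic cell-like (1004 ± 82.7), monocyte-like (938 ± 121) and microglia-like cells (831 ± 193), with neighbours within an SD, to 579 ± 122 in border-associated macrophage-like, 437 ± 90.7 in endothelial-like, 298 ± 14.8 in lymphoid-like and 203 ± 35.9 in mural-like cells. Bcl2 was highest in lymphoid-like cells (605 ± 53 CPM, both libraries from D0), as is known of mature lymphocytes, against 60.4 ± 55.1 in monocyte-like, 51.2 ± 17.3 in mural-like and 13.4 ± 6.46 in microglia-like cells. Bcl2l1 was highest in endothelial-like cells (123 ± 43.6 CPM) and above the microglia-like cells of the same library in 8 of 8, with microglia-like cells at 41.0 ± 20.5 and monocyte-like cells at 9.57 ± 7.38.

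Of the pro-apoptotic genes Bax was at 197 ± 16.4 CPM in monocyte-like cells, above the microglia-like cells of the same library in 7 of 7, at 148 ± 25.2 in microglia-like cells and at 50.5 ± 22.5 in neutrophil-like cells. Bak1 was at 60.9 ± 22.1 CPM in monocyte-like and 23.8 ± 5.86 in microglia-like cells. Bcl2l11 was at 109 ± 33.1 CPM in lymphoid-like, 63.9 ± 21.6 in neutrophil-like and 39.2 ± 7.74 in microglia-like cells. Bbc3 was at 35.4 ± 15.4 CPM in monocyte-like, 29.9 ± 11.0 in microglia-like and 8.59 ± 8.21 in neutrophil-like cells.

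**Figure D4:**
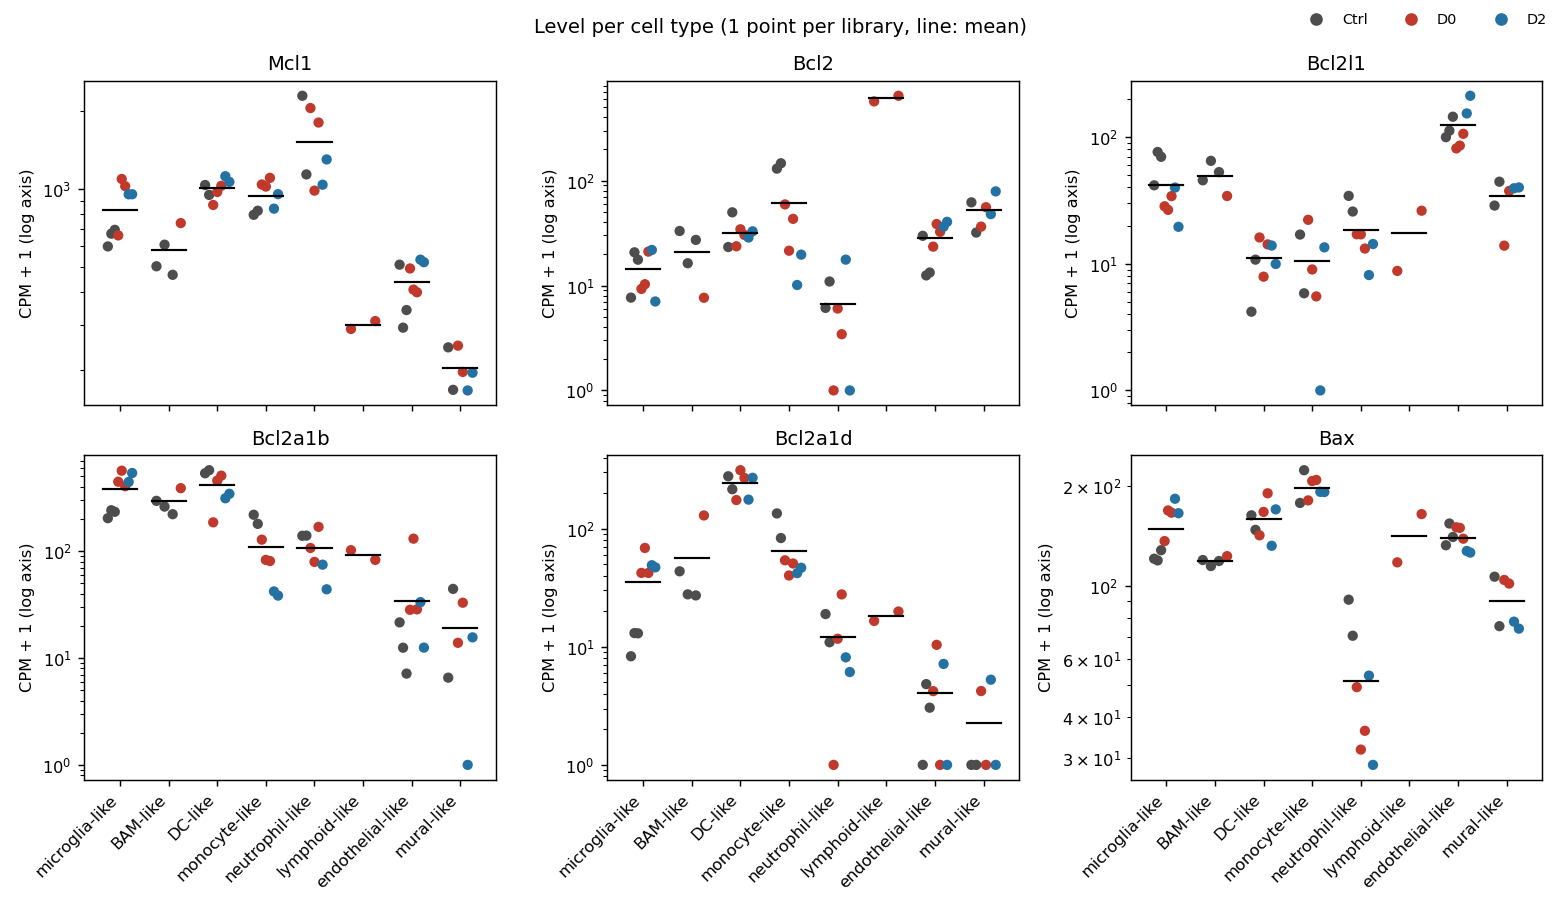
Plain CPM plus 1 (vertical log axes) of 6 of the genes in 8 cell types, 1 point per library coloured by condition, with a line at the mean. Bcl2 is highest in lymphoid-like cells (605 CPM), Bcl2l1 in endothelial-like cells (123 CPM) and Bcl2a1d in dendritic cell-like cells (241 CPM).

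The effect of PLX in other cell types was tested where 2 or more Ctrl and D0 libraries had enough cells. None of the 10 genes tested was called in dendritic cell-like cells (background 0.0138%, 462 of 7240 genes at an unadjusted p under 0.05), none of 7 in neutrophil-like cells (background 0.0878%, 469 of 4557), none of 8 in endothelial-like cells (background 0.0122%, 423 of 8220) and none of 3 in mural-like cells (background 0.0235%, 185 of 4258). In monocyte-like cells 1 of 9 was called, at a background of 0.471%: Bcl2 fell to 0.265 of Ctrl (log2 -1.92 ± 0.35, adjusted p = 0.0482). It was at 129 and 145 CPM in Ctrl-2 (118 cells) and Ctrl-3 (35 cells), at 58.3, 20.5 and 42.2 in the D0 libraries (39, 134 and 80 cells) and at 9.11 and 18.7 in D2. No treated library reached the Ctrl values. The call was lost without Ctrl-2 (adjusted p = 0.460), Ctrl-3 (0.141), D0-2 (0.105), D2-1 (0.0642) or D2-2 (0.0780). The BCL2A1 copies in monocyte-like cells were also lower in D0 without passing the limit, Bcl2a1d at 134 and 82.3 CPM in Ctrl against 53, 39.2 and 49.7 (log2 -1.27, adjusted p = 0.0588) and Bcl2a1b at 218 and 179 against 127, 81.9 and 79.9 (log2 -1.11, adjusted p = 0.0528). Both controls were processed with Cell Ranger 3.1.0 and all D0 and D2 libraries compared with 3.0.2. Version and treatment therefore cannot be told apart in monocyte-like cells, nor in neutrophil-like cells, which had the same controls.

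The makeup of the monocyte-like cells also differed between the libraries. The markers of Ly6c-low monocytes (Ace, Treml4, Spn, Eno3 and Cd300e) summed to 1710 and 1340 CPM in Ctrl and 488, 209 and 622 in D0, and those of Ly6c-high monocytes (Ly6c2, Ccr2, Chil3, Vcan and Plac8) to 3540 and 4830 in Ctrl and 6910, 7580 and 7110 in D0. The listed monocyte markers were split in this way after the values had been seen, and the part of this shift in the lower Bcl2 and BCL2A1 values was not tested. Microglia markers in the same cells (P2ry12, Tmem119 and Sall1) summed to 509 and 199 CPM in Ctrl and 175, 122 and 18.1 in D0, lower in every D0 library, and their part was not tested either.

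The difference between cell types was tested directly, as the D0 effect in the other type minus that in microglia-like cells of the same libraries. In dendritic cell-like cells 2 genes were called (background 2.18%): Bcl2a1d at log2 -2.44 ± 0.28 (adjusted p = 2.84e-07) and Bcl2a1b at -1.76 ± 0.29 (adjusted p = 0.000213), with Bcl2a1a at -1.08 (adjusted p = 0.0600). Bcl2a1d was at 277 and 215 CPM in dendritic cell-like cells of Ctrl-1 (25 cells) and Ctrl-3 (21 cells) and at 174, 312 and 268 in the D0 libraries, so that the D0 values lay on both sides of Ctrl. The call of Bcl2a1b was lost without Ctrl-1 (adjusted p = 0.228) or Ctrl-3 (0.147). In monocyte-like cells 4 genes were called (background 2.73%): Bcl2a1d at log2 -3.49 ± 0.36 (adjusted p = 3.96e-19), Bcl2a1a at -2.38 ± 0.35 (adjusted p = 1.75e-09), Bcl2a1b at -2.26 ± 0.29 (adjusted p = 8.41e-13) and Bcl2 at -1.52 ± 0.40 (adjusted p = 0.00964). In this edgeR fit the spread was pooled over genes, so the small p-values do not measure the spread of each gene between so few libraries. DESeq2 gave adjusted p of 1.64e-07, 8.72e-05 and 1.40e-06 for the copies in the same order. Ctrl-2 and Ctrl-3 were again the only controls, of another Cell Ranger version than the D0 libraries. The call of Bcl2 was lost in DESeq2 (adjusted p = 0.395) and without Ctrl-2 (0.314), Ctrl-3 (0.282), D0-2 (0.118) or D0-3 (0.0751). None of the 10 differed between microglia-like and neutrophil-like (background 0.789%), endothelial-like (3.95%) or mural-like cells (1.06%) beyond the limit, with smallest adjusted p of 0.294, 0.224 and 0.701.

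**Figure D5:**
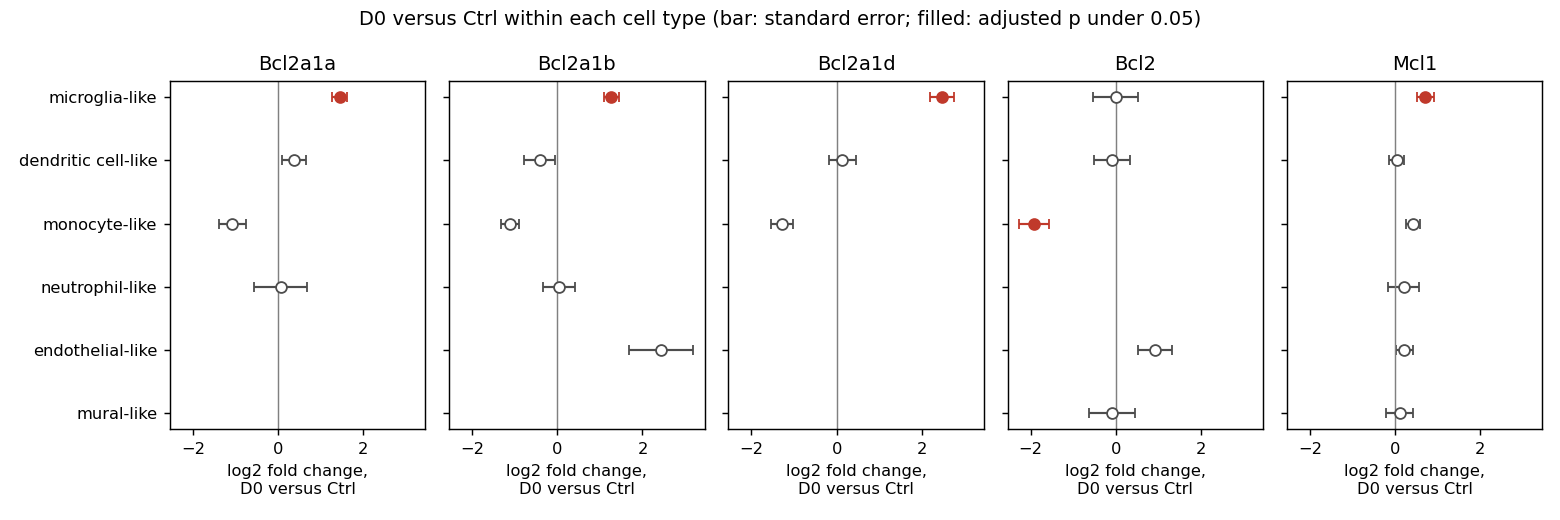
Log2 fold change from Ctrl to D0 (horizontal axes, shared scale) of the BCL2A1 copies, Bcl2 and Mcl1 in each cell type tested (rows), with standard errors as bars and filled points for an adjusted p under 0.05, and no point where the gene was not tested. The copies lie right of 0 in microglia-like cells (1.27 to 2.47) and left of 0 in monocyte-like cells (-1.27 to -1.07). Bcl2a1b in endothelial-like cells also lies right of 0 (2.43, SE 0.75), without being called.

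The genes most alike each member in their levels over the 8 libraries of microglia-like cells, by Pearson r of log2 normalised CPM among genes of at least 20 CPM, were Ensa (0.988), Map3k8 (0.983) and Ifrd1 (0.981) for Mcl1, Atp5c1 (0.996), Aldh2 (0.995) and H2-Ab1 (0.993) for Bcl2a1b, and H2-D1 (0.996), Cxcl16 (0.994) and Tbca (0.994) for Bcl2a1d. Bax was most like Cdkn1a (0.991), Jpt1 (0.986) and Hlx (0.985), and Bbc3 most like Gcnt2 (0.980), Got1 (0.979) and Cd274 (0.974). For Bcl2l1 they were Snx18 (0.989), Ccl9 (0.982) and Klf7 (0.977), for Bcl2a1a Cxcl16 (0.987), Dmac1 (0.987) and H2-K1 (0.986), for Bak1 Gnb2 (0.989), Ctdnep1 (0.982) and Rbck1 (0.973), for Bcl2l11 Sdhaf2 (0.986), Socs6 (0.974) and Sat1 (0.951), and for Bcl2 Cdk6 (0.963), Trmt1 (0.949) and C5ar1 (0.948). The 8 points share 3 conditions and differ in depth and Cell Ranger version, and these are the highest of many genes.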

How the data were processed

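For each of 9 libraries the authors deposited raw UMI counts per gene and barcode, from Cell Ranger on mm10; the labels name version 3.1.0, and the file headers 3.0.2 in 6 libraries and 3.1.0 in 3. The limits of the study on cells were kept (500 to 20000 UMIs, 200 genes or more, mitochondrial UMIs up to 10%). Cells of all libraries but D2-3 were clustered with the Leiden method (scanpy 1.11.5, leidenalg 0.10.2, python 3.11.15) on 10 principal components, with 20 neighbours, 3000 variable genes and a resolution of 0.6. Those left after neutrophil-, lymphoid-like and non-myeloid cells had been set apart were clustered again. Cells of D2-3 were not clustered but took the most frequent cluster among their 30 nearest neighbours. The 10 genes and the other family and pathway genes (54 in all) were left out of the variable genes. Clusters were named after cell types from listed markers. Myeloid clusters of 1977 and 307 cells stayed unnamed, at a median depth of 0.270 and 0.176 of the library median. Their cells are in no microglia-like sum, only in the alternative of all myeloid cells. No doublets were removed in the main fits. Scrublet marked 0.194% of the cells (59 of 30463), and whether it worked on these data was not tested. Its scores served only an alternative that removed the top 4%. UMIs were summed per library and cell type, where at least 20 cells were present, so that the library was the replicate, and fitted with edgeR 4.0.16 in R 4.3.3 (TMM, filterByExpr, quasi-likelihood test, Benjamini-Hochberg over all genes tested). The 3 conditions shared 1 fit of 8 libraries, without D2-3. MAC2+ and dividing cells were compared with the other microglia-like cells with library as a block, and the D0 effect was compared between cell types as an interaction with library as a block.

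The genes, gene lists, markers and tests were chosen with earlier results of these data known, and no p-value is adjusted over the 10 genes alone. The 10 genes are named in every comparison; of the other listed genes those called are named, or the 10 of largest difference where over 10 of a list were called, except that some listed genes are not reported here by name. Alternatives were DESeq2 1.42.0, other scalings, no filter on low counts, each library left out, D2-3 included, the Cell Ranger version, cells thinned to 2000 UMIs, other cell limits and clusterings, and the replicate number as a block; the sum of the BCL2A1 copies was added after the data had been seen. Deviations of Ctrl and D0 libraries of the same number correlated across genes with r of 0.375, 0.152 and 0.137. Those of unlike number ran from -0.342 to 0.284, so that these values do not settle whether the numbers pair libraries. The numbers, which the labels give, were used as a block in an alternative only. The block changed no call of the 10 genes in D0 against Ctrl. The study states that microglia were collected on the same day, and p-values cover the spread between libraries. In the differences of monocyte-, neutrophil- and mural-like from microglia-like cells that spread was pooled over genes. Gene positions came from GENCODE on GRCm38, and the upstream sequences and starts from RefSeq on GRCm38.p6 (biopython 1.88). Of the tests only D0 against Ctrl in microglia-like cells was run on simulated counts. It called 36 of 50 genes set at log2 1, 34 of 50 set at -1 and 10 of 12042 unchanged genes. The simulated spread was estimated from these data under the same model, so this run cannot show whether that model holds.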

Additional observations from a re-analysis of the deposited data

Results flagged for a closer look

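A difference between cell types in the D0 effect was called for 6 values. In dendritic cell-like cells the effect minus that in microglia-like cells was log2 -2.44 for Bcl2a1d and -1.76 for Bcl2a1b. In monocyte-like cells it was -1.52 for Bcl2, -3.49 for Bcl2a1d, -2.38 for Bcl2a1a and -2.26 for Bcl2a1b. The dendritic cell-like values rest on 25 and 21 Ctrl cells and the monocyte-like values on 118 and 35, and the difference of Bcl2a1a between dendritic cell-like and microglia-like cells (-1.08) was not called. Both controls of the monocyte-like values were processed with another Cell Ranger version than the D0 libraries.

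In D2-3, the library left out of the main fits, 6 of the genes were above every Ctrl library in microglia-like cells, in plain CPM. These were Bcl2 at 32.0, Bcl2a1a at 252, Bcl2a1b at 471, Bcl2a1d at 209, Bax at 237 and Bak1 at 74.0 CPM. Mcl1 was at 318 CPM, below every other library, and Bcl2l11 at 9.41. Of the 638 microglia-like cells of this library 86.8% were dividing, and no comparison was run on 1 library. No group had the 4 libraries that a check for single outlying libraries needs.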

How the results depend on the processing

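Of the 10 genes, the number called in D0 against Ctrl was 6, ranged from 3 to 7 when 1 library was left out (3 without D0-2), and was 1 with D2-3 included and 3 with the libraries of Cell Ranger 3.0.2 alone, these 3 being the BCL2A1 copies. In D2 against Ctrl it was 5, 4 with D2-3 included, 3 to 6 with 1 library left out (3 without D2-2) and 3 with Cell Ranger 3.0.2 alone. Without the library as a block it fell from 8 to 3 in MAC2+ cells and from 6 to 2 in dividing cells, and ranged from 8 to 9 and from 4 to 9 with 1 library left out. In monocyte-like cells the count was 1, with 0 to 2 when 1 library was left out, 3 without the filter on low counts, 0 at a minimum of 10 cells and 2 with the replicate block, and in endothelial-like cells 2 without the filter. For the difference from microglia-like cells it was 4 under upper-quartile scaling and 1 to 3 with 1 library left out in dendritic cell-like cells, 0 to 1 in neutrophil-like and 0 to 2 in endothelial-like cells. In D2 against D0 it was 0 in every alternative. Over all genes the calls ranged from 503 (D2-3 included) to 3021 in D0 (main 2458), 743 (Cell Ranger 3.0.2 alone) to 3071 in D2 (2296), 0 to 33 in D2 against D0 (0), 377 (no block) to 2623 in MAC2+ (2586) and 2990 to 5813 in dividing cells (4981). In the other types they ranged from 0 to 102 (dendritic cell-like, 1), 1 to 389 (monocyte-like, 29), 0 to 132 (neutrophil-like, 4), 0 to 89 (endothelial-like, 1) and 0 to 78 (mural-like, 1), and for differences from microglia-like cells from 67 to 367 (266), 114 to 386 (331), 48 to 131 (96), 301 to 524 (498) and 56 to 214 (132) in the same order.

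With a term for the Cell Ranger version, 1378 genes were called in D0 and 1181 in D2, Mcl1 lost its D0 call and Bax its D2 call (log2 0.72, adjusted p = 0.0502). Differences from Ctrl in that fit are from Ctrl-1 alone, since all treated libraries compared had the version of Ctrl-1. The replicate block moved the calls over all genes to 2870 in D0 and 2295 in D2, and Mcl1 was then called in D2 (log2 0.73, adjusted p = 0.0187). Libraries of equal number in D2 and Ctrl deviated together at r of 0.0515 and 0.0688 and in D2 and D0 at -0.125 and 0.239, which does not show a pairing either. In the unblocked fit Bcl2l1 was called in D0 by DESeq2 (log2 -0.88, adjusted p = 0.0151) and, in D2, Mcl1 and Bcl2l1 were (0.66 and -0.99).

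Signs turned in genes near 0. In D0 Bcl2 was 0.02 in DESeq2, with RLE scaling, with the 2 groups alone and with the top 4% of doublet scores removed, 0.01 with D2-3, 1.18 and 1.2 with the version as a term and with 3.0.2 alone, 0.23 with no upper UMI limit and 0.00 at a resolution of 0.3, and -0.50 to 0.31 with 1 library left out. Bcl2l11 was -0.01 with the version as a term, -0.04 without MAC2+ cells and -0.06 to 0.10 with 1 library left out, and Bak1 -0.01 to 0.42. In D2 Bcl2 was -0.01 without the filter, -0.12 in all myeloid cells, -0.06 without MAC2+ cells, -0.52 when thinned and -1.09 to 0.60 with 1 library left out, and Bak1 0.91 with D2-3, 0.55 with the version as a term and 0.57 with 3.0.2 alone. In D2 against D0 the block gave Mcl1 0.05 and Bcl2l1 0.03, and D2-3 gave Bcl2l1 0.27, Bcl2a1a 0.62, Bcl2a1b 0.05, Bcl2a1d 1.12, Bak1 0.65 and Bbc3 -0.07. There Bcl2 was -0.02 in DESeq2 and without MAC2+ cells, -0.15 with no upper UMI limit, where Bax was -0.01, and -0.08 when thinned. Leaving out 1 library gave Mcl1 -0.28 to 0.10, Bcl2 -1.10 to 0.61, Bcl2l1 -0.68 to 0.31, Bcl2a1b -0.22 to 0.14, Bcl2a1d -0.35 to 0.12, Bax -0.07 to 0.13 and Bbc3 -0.10 to 0.39. Bbc3 in MAC2+ cells was 0.10 without the block, Bcl2a1a and Bcl2a1d in dividing cells -0.06 as the sum of the copies, Mcl1 there -0.04 to 0.01 with 1 library left out, and Bcl2a1d in dendritic cell-like cells -0.14 with the block and -0.08 to 0.36 with 1 library left out. None of these was called either way except Bcl2a1a in dividing cells, and the cause was not tested.

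The mean share of microglia-like cells with a UMI, with all UMIs in place of 2000, was 89.3% for Mcl1, 8.76% for Bcl2, 25.4% for Bcl2l1, 32.5% for Bcl2a1a, 77.7% for Bcl2a1b, 14.1% for Bcl2a1d, 60.6% for Bax, 16.8% for Bak1, 24.0% for Bcl2l11 and 18.9% for Bbc3, as deeper cells show more genes. Depth limits Bcl2, Bcl2a1d in Ctrl and the small cell types.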
